A study of Arabidopsis thaliana with 12 samples.

Results

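The response that progesterone and testosterone share in *A. thaliana* leaves was described by taking the 8 steroid-treated libraries of the series as 1 group and the 4 mock-treated libraries as the other, so that all 12 libraries were used. The members were chosen by their labels: 4 libraries of PO (10 µM progesterone), 4 of TO (10 µM testosterone) and 4 of DMSO. Plants of genotype Col-0, 7 days old by the treatment protocol of the labels, were moved to a nutrient-poor medium, given 2 days to adapt and treated for 1 h. The labels give 0.12% DMSO for the mock and for PO and name no solvent for TO, while the methods of the study describe steroid stocks in DMSO. The growth protocol of the same labels states an age of 10 days, and the difference was not resolved here. The 4 libraries per treatment are biological replicates by the study's text, which calls the tissue shoots. The study asked whether these mammalian sex steroids disturb brassinosteroid homeostasis in plants, and RNAseq was 1 of its readouts.

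Total counts per library lay between 41036335 and 63445014, so that 3 counts, the most that a count of 0 allows, stood for 0.047 to 0.0723 counts-per-million (CPM, here scaled with TMM factors), a limit that covers counting error only. The 5 leaf markers summed to between 31023.7 and 37790.5 CPM in DMSO and between 29656.6 and 33690.0 CPM in the steroid libraries, while the 8 root markers summed to at most 1.84 and 4.99 CPM and the 8 flower markers to at most 31.8 and 26.9 CPM, mostly SEP3 and PI. Among the root markers, PIN2 reached 3.47 CPM in TO 3, and IRT1 was at 0 in every library but TO 1. None of the markers was called. DMSO 1 stood apart from the other libraries on the first principal component (-53.57, the others between -23.71 and 38.16). Without DMSO 1, 33 of the 58 rising and 4 of the 11 falling loci described below were still called, and the adjusted p without it is given beside the main genes that were not. In leaves taken whole, less of an RNA per cell and fewer cells that hold it cannot be told apart.

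Plants handle foreign compounds in steps that are usually called phases. Cytochromes P450 and reductases first add or alter a reactive group, glutathione transferases (GSTs) and UDP-glycosyltransferases (UGTs) then attach glutathione or a sugar, and transporters of the ABC and MATE families move the conjugates out of the cytosol. Some of the same enzymes act on hormones: DOGT1 (UGT73C5) is known to glucosylate the mycotoxin deoxynivalenol and also brassinosteroids, the steroid hormones of plants. Many genes of this kind carry TGACG, the core of the as-1 element bound by TGA factors, in their promoters.

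Detoxification genes made up a large share of the rising loci. Tested with edgeR's quasi-likelihood test and Benjamini-Hochberg (BH) adjustment over 23203 loci, 58 loci were higher in steroid than in DMSO at an adjusted p under 0.05, which is 0.250% of the loci tested. With this test, 11 loci were lower, 0.0474%. Every direction is that of steroid over DMSO as the labels assign the libraries to treatments. That assignment was not checked by other means, and every rise or fall given here depends on it. The 58 rising loci comprised 53 protein-coding genes and 5 long non-coding RNAs, with folds from 1.41 to 8.08 (median 2.01), and 29 of them had a log2 fold change (logFC) beyond 1. The falling loci comprised 10 protein-coding genes and 1 long non-coding RNA, with falls of 1.27-fold to 5.17-fold (median 2.24-fold). Each of the rising and falling long non-coding RNAs shares exon bases with a called gene on the other strand. So do the protein-coding AT2G29485 and AT4G34139. Such partners may count the same reads, and UGT75B1 and AT1G05562 had identical counts in every library. Separate changes of these partners were not shown, and the 58 and the 53 may hold some changes more than once. At an unadjusted p under 0.05, the directions were balanced, with 1310 loci higher (5.65%) and 1299 lower (5.60%), where 1160 in all would be expected if p were uniform. In 56 of the 58 rising loci every steroid library lay above every DMSO library, against 0.858% of all loci tested, and in 8 of the 11 falling loci every steroid library lay below, against 0.590%. These non-overlapping libraries are part of what made the loci called and are given as a description.

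Of the 53 rising protein-coding genes, 23 belonged to 1 of 6 lists of detoxification genes (cytochromes P450, UGTs, GSTs, ABC transporters, MATE transporters, and aldo-keto and alkenal reductases with 12-oxophytodienoate reductases). These lists held 490 tested genes, of which 4.69% were called higher, against 0.250% of all loci tested. By list, 4 of 157 P450s, 7 of 109 UGTs, 6 of 53 GSTs, 4 of 101 ABC transporters, 1 of 44 MATE transporters and 1 of 26 reductases were called higher, and none of the members of these 6 lists was called lower. The count of ABC transporters rested on single libraries: it was 1 without DMSO 1, TO 3 or TO 4, and 2 without DMSO 2 or DMSO 3 or with robust dispersion. The GSTs numbered 4 without DMSO 1 or DMSO 3. Most members did not move by much: the median logFC over the tested members was 0.06, 0.09, 0.01, 0.04, 0.03 and 0.02, in the same order, and -0.001 over all loci. The lists were matched by words of gene symbols, synonyms and product names.

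**Figure D1:**
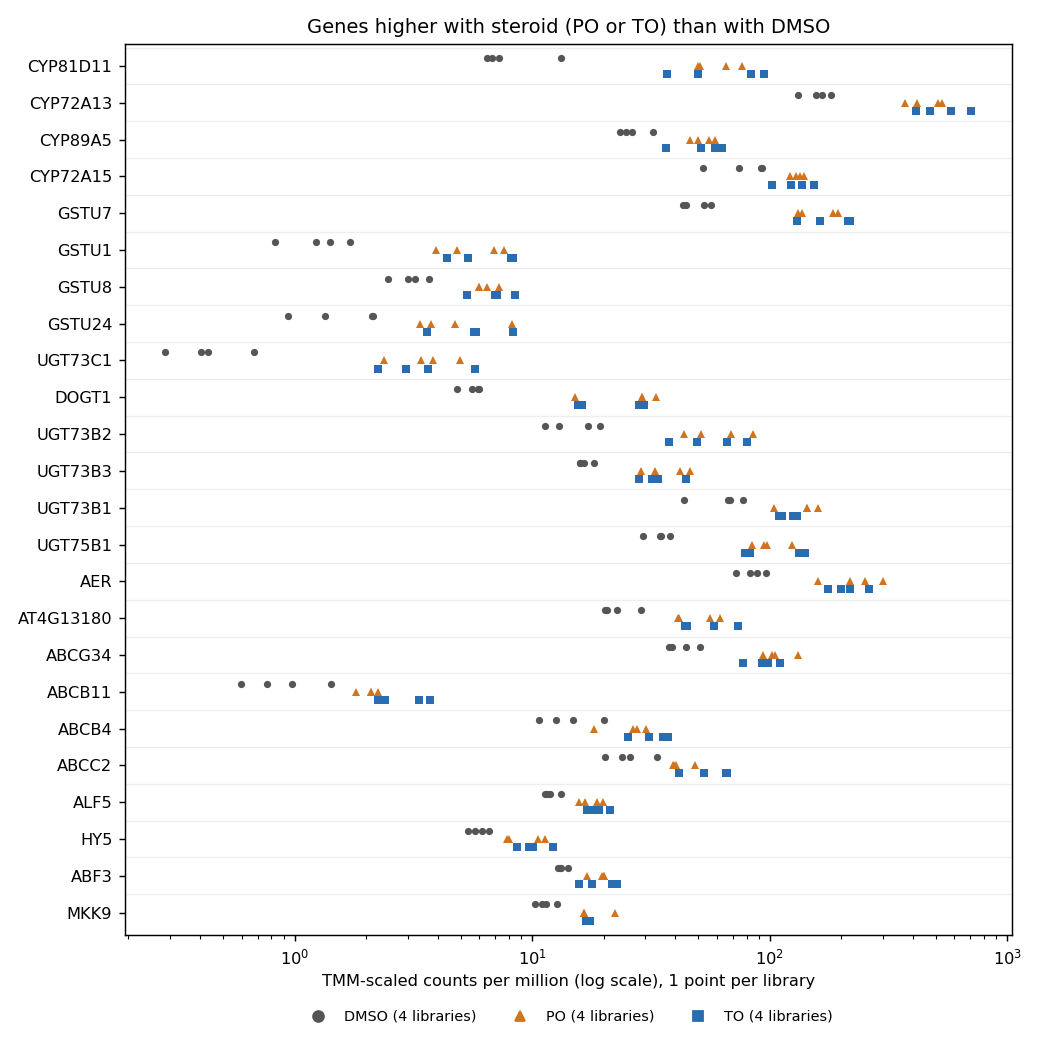
Level of 24 rising genes in each of the 12 libraries, in TMM-scaled CPM on a log axis, with grey circles for DMSO, orange triangles for PO and blue squares for TO (4 libraries each, 1 point per library). The steroid points lie to the right of the DMSO points for every gene shown except ABCB4, where PO 2 at 18.2 CPM lies below DMSO 2 at 20.1 CPM.

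The 7 promoters that follow are shown because they belong to rising genes that carry TGACG or its reverse complement CGTCA, printed in capitals, at least 2 times close to the start of the RefSeq gene model. Each is the stretch of the TAIR10.1 genome that ends at the base before the start, read 5′ to 3′ on the strand of the gene, 100 bases long and 140 for UGT73B3.
GSTU7 (chr2:12618900-12618999, minus strand): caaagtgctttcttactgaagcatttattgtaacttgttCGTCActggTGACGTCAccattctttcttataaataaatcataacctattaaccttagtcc
AER (chr5:5578087-5578186, minus strand): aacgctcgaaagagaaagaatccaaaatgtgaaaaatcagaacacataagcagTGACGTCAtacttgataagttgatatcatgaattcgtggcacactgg
GSTU1 (chr2:12632539-12632638, minus strand): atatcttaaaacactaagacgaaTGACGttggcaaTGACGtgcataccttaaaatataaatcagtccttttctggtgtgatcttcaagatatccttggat
AT1G17860 (chr1:6149078-6149177, plus strand): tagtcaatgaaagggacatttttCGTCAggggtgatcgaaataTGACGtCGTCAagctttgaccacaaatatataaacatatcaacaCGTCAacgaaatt
UGT73B3 (chr4:16344819-16344958, minus strand): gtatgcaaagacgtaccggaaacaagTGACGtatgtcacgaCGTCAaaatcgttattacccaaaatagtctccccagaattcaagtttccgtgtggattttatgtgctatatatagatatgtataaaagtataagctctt
AT5G14730 (chr5:4755957-4756056, plus strand): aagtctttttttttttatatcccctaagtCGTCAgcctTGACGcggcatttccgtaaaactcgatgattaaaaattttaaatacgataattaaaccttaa
ABF3 (chr4:16295234-16295333, plus strand): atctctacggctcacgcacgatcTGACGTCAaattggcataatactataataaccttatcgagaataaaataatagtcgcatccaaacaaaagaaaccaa
GSTU7, AER and ABF3 hold the palindrome TGACGTCA, which matches on both strands and so counts as 2 overlapping matches. The 7 are examples: DJ1A also has matches 133 and 44 bases before the start and is not shown. UGT73C1, CYP72A13, ABCG34, UGT75B1 and UGT73B2 have no match in the 250 bases before the start. Over the window from 250 bases before to 50 after the start, TGACG was found on either strand in 23 of the 53 rising promoters (43.4%), in 23.1% of all 27431 protein-coding promoters and in 23.6% of those of the 20646 tested protein-coding loci. At least 2 matches were found in 10 of the 53 (18.9%), against 4.44% of all promoters. Among the falling promoters, 2 of 10 held it. Of the other elements searched on both strands of the same window, the W box (TTGACC or TTGACT, which can share bases with TGACG or its complement) was in 30.2% of the rising and 32.4% of all promoters, GAANNTTC in 9.43% and 11.6%, CACGTG in 5.66% and 7.68%, GCCGCC in 11.3% and 2.57%, CCGAC in 9.43% and 15.0%, CGTGTG in 9.43% and 6.51%, ACGTGGC in 1.89% and 4.09%, CGCGTT in 0 of 53 and 3.40%, and the mitochondrial dysfunction motif in 3.77% and 2.14%. A match of letters describes the sequence and does not show that a factor binds there.

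Among the P450s, CYP81D11, a gene known to respond to cis-jasmone and to foreign compounds, had the largest change. CYP81D11 stood at 7.26, 6.80, 6.44 and 13.2 CPM in DMSO 1 to 4, and at a lowest 37.1, a median of 58 and a highest of 95.1 CPM in the 8 steroid libraries. The DMSO 4 value was the highest of the mock libraries and still well below every steroid library. Its level was 7.53-fold higher (logFC 2.91 ± 0.28 SE, edgeR BH-adjusted p = 0.00027), with a logFC of 2.85 for PO and 2.98 for TO taken alone. CYP72A13 was the most abundant of the called P450s, at 131.8, 156.4, 165.4 and 180.8 CPM in DMSO and 371.7 to 705.8 CPM (median 493.5) with steroid. No steroid library of CYP72A13 overlapped the mock (3.16-fold, logFC 1.66 ± 0.16 SE, edgeR BH-adjusted p = 0.00027). Its neighbour CYP72A15, 52.4, 74.2, 92.1 and 93.3 CPM in DMSO and 102.5 to 154.2 CPM (median 131.5) with steroid, was 1.67-fold higher and was called only with the steroids as 1 group. CYP72A15 lost its call in 9 of the 12 fits that left out 1 library. Its adjusted p was 0.069 without DMSO 1 and 0.12 without DMSO 2 (edgeR, BH). CYP89A5 was 1.96-fold higher. Of the P450s that did not pass, CYP83B1, an enzyme of indole glucosinolate synthesis, had a logFC of 0.08 ± 0.23 SE and CPD, an enzyme of brassinosteroid synthesis, 0.08 ± 0.12 SE.

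The rising GSTs were mainly of the plant-specific tau class. GSTU7 had the smallest p of all protein-coding genes. It was at 52.8, 56.5, 43.1 and 44.3 CPM in DMSO and at 130.4 to 217.3 CPM (median 174.5) with steroid. Every steroid library lay above the mock, and TO 2 and TO 3 lay above the 4 PO libraries. The change was 3.49-fold (logFC 1.80 ± 0.16 SE, edgeR BH-adjusted p = 0.0002). The long non-coding RNA AT2G08340, on the other strand over 559 bases of GSTU7, was counted at nearly the same levels, and no source says that reads were assigned by strand, so that such partners cannot be told apart. GSTU1 was at no more than 1.71 CPM in any DMSO library and at 3.95 to 8.33 CPM (median 6.16) with steroid, 4.80-fold higher. GSTU8 was at 2.47, 3.70, 3.23 and 3.01 CPM in DMSO and 5.34 to 8.46 CPM (median 6.75) with steroid, 2.16-fold higher, and GSTU24 was 3.33-fold higher (edgeR BH-adjusted p = 0.023, and 0.095 without DMSO 1). GSTU2 lies next to GSTU1 and rested on 2, 4, 2 and 4 counts in DMSO against 9 to 36 counts with steroid, and the uncharacterised AT2G29485 on its other strand shared nearly all of them. GSTU2 had an adjusted p of 0.016 (edgeR, BH), and 0.089 without DMSO 1. In the same direction, AT4G19880 of another GST class was 1.77-fold higher. The most abundant GSTs, of the phi class, gave no call: GSTF8 had a logFC of -0.03 ± 0.16 SE, GSTF6 of -0.06 ± 0.26 SE and GSTF10 of 0.14 ± 0.13 SE. GSTU25, which had the largest logFC of the GSTs (2.80 ± 0.67 SE), did not pass (edgeR BH-adjusted p = 0.098), with 1.72 for PO and 3.42 for TO.

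Sugar-transferring enzymes gave the largest number of calls of any list. UGT73C1, known to glucosylate cytokinins and nitroaromatic compounds, was at 0.431, 0.403, 0.286 and 0.677 CPM in DMSO (95 counts in all) and at 2.24 to 5.74 CPM (median 3.54) with steroid. That made it 8.08-fold higher, the largest fold of all called loci (logFC 3.01 ± 0.31 SE, edgeR BH-adjusted p = 0.00031, PO 3.02 and TO 3.01). DOGT1 was at 4.85, 5.96, 5.92 and 5.57 CPM in DMSO and 15.2 to 33.1 CPM (median 28.6) with steroid. The steroid values of DOGT1 fell into a lower set of 15.2 to 16.2 CPM (PO 1, TO 1, TO 4) and a higher one of 28.2 CPM and more, all above the mock. It was 4.40-fold higher (logFC 2.14 ± 0.24 SE, edgeR BH-adjusted p = 0.00043). The genes UGT73C1 and DOGT1 lie in 1 cluster on chromosome 2, together with AT2G36780, which was 1.84-fold higher and called only with the steroids as 1 group, and with UGT73C6, whose steroid libraries all lay above the mock (6.44 to 11.2 against 4.82 to 6.25 CPM) although it did not pass (logFC 0.56 ± 0.14 SE, edgeR BH-adjusted p = 0.11). AT2G36780 was not called without DMSO 1, DMSO 3 or DMSO 4.

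A second cluster of UGTs on chromosome 4 rose as well. UGT73B2, which glucosylates flavonoids, was at 17.2, 19.4, 11.3 and 13.0 CPM in DMSO and at 37.6 to 85.1 CPM (median 58.7) with steroid, 3.96-fold higher (logFC 1.99 ± 0.23 SE, edgeR BH-adjusted p = 0.00062). UGT73B3 was 2.16-fold and UGT73B1 2.01-fold higher. On the other strand of this cluster, AT4G08935 over UGT73B3 and AT4G34139 over UGT73B1 were called too. UGT75B1, which glucosylates small organic acids, was at 29.3, 35.0, 34.5 and 38.2 CPM in DMSO and 78.5 to 141.3 CPM (median 96.4) with steroid, 3.05-fold higher. Its counts were identical in every library to those of the antisense AT1G05562, which spans the same bases. Among the UGTs that did not pass, UGT74E2, which acts on indole-3-butyric acid, came closest (logFC 1.66 ± 0.33 SE, edgeR BH-adjusted p = 0.055), and UGT85A1, the most abundant, had a logFC of 0.07 ± 0.24 SE. Because several of these genes are near copies of their neighbours, the share of reads that each received is uncertain.

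Reductases and oxidases of other kinds moved with them. AER, the alkenal reductase that removes reactive products of lipid oxidation, was at 88.9, 97.0, 71.9 and 83.0 CPM in DMSO and 160.4 to 300.1 CPM (median 218.0) with steroid. The 8 steroid libraries of AER did not overlap the mock (2.62-fold, logFC 1.39 ± 0.16 SE, edgeR BH-adjusted p = 0.00044). Its neighbours AT5G16980 and AT5G17000, both annotated as zinc-binding dehydrogenases, were 3.93-fold and 2.12-fold higher. AT4G13180, of the short-chain dehydrogenase type, was 2.29-fold higher, the copper amine oxidase AT4G12290 1.70-fold and the aldehyde oxidase AO1 1.5-fold. MO1, a flavin-type monooxygenase, rose 1.72-fold and DJ1A, a member of the DJ-1 family of stress-protective proteins, 1.55-fold. Without DMSO 1 the adjusted p was 0.068 for AO1, 0.095 for MO1 and 0.066 for AT5G17000 (edgeR, BH). DJ1A had tight values, 166.6, 187.8, 165.2 and 175.0 CPM in DMSO and 249.7 to 300.0 CPM (median 271.5) with steroid, and so reached an adjusted p of 0.00043 (edgeR, BH) with a small fold. OPR2, a 12-oxophytodienoate reductase, was at 12.3 to 28.0 CPM with steroid and at 5.01 to 12.0 CPM in DMSO and did not pass (logFC 1.18 ± 0.25 SE, edgeR BH-adjusted p = 0.063).

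Transporters that rose included members of 3 ABC subfamilies. ABCG34, known to export the phytoalexin camalexin, was at 39.0, 37.8, 44.5 and 50.7 CPM in DMSO and 77.6 to 132.0 CPM (median 100.5) with steroid, 2.37-fold higher (logFC 1.24 ± 0.13 SE, edgeR BH-adjusted p = 0.00031). The vacuolar pump for glutathione conjugates, ABCC2, was at 20.3, 23.8, 25.8 and 33.5 CPM in DMSO, at 39.3 to 48.7 CPM in PO and at 41.6 to 66 CPM in TO. It was 1.91-fold higher (logFC 0.93 ± 0.17 SE, edgeR BH-adjusted p = 0.033). The auxin transporter ABCB4 (1.99-fold) and its close relative ABCB11 (2.64-fold) rose as well, and ABCB4 was 1 of the 2 rising loci whose groups overlapped. Without DMSO 1 the adjusted p was 0.13 for ABCC2, 0.12 for ABCB4 and 0.11 for ABCB11 (edgeR, BH). ALF5, a MATE carrier that protects roots from toxins, was 1.52-fold higher, the urea symporter DUR3 1.87-fold, and MTPB1, a metal tolerance protein that overlaps the abundant GSTU7 by 52 bases on the other strand, 2.00-fold. MTPB1 lost its call in 11 of the 12 fits that left out 1 library, with an adjusted p of 0.15 without DMSO 1 (edgeR, BH). ABCC1 and ABCC12, relatives of ABCC2, had logFC values of 0.42 ± 0.09 SE and 0.63 ± 0.14 SE and did not pass (edgeR BH-adjusted p = 0.069 and 0.071). PEN3, the most abundant of the list, had a logFC of -0.11 ± 0.13 SE.

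Regulators made up few of the rising loci. MKK9, a MAP kinase kinase, was at 10.3, 12.7, 11.4 and 11.0 CPM in DMSO and 16.5 to 22.3 CPM (median 16.9) with steroid, 1.54-fold higher (logFC 0.63 ± 0.09 SE, edgeR BH-adjusted p = 0.0063). HY5, a bZIP factor of light signalling, rose 1.65-fold. ABF3, a bZIP factor of abscisic acid responses, was at 13.1, 14.1, 13.2 and 12.8 CPM in DMSO and 15.8 to 22.8 CPM (median 19.8) with steroid, 1.45-fold higher (edgeR BH-adjusted p = 0.023). Without DMSO 1 the adjusted p was 0.095 for HY5 and 0.091 for ABF3 (edgeR, BH). Members of the list of factors known to control detoxification genes (TGA factors, SCL14 and NAC factors) gave no edgeR call among 27 tested. At an unadjusted p under 0.05, 5 were higher (18.5%, against 5.65% of all loci) and 0 lower. The logFC was above 0 for 21 of the 27, and for 11532 of all 23203 loci. DESeq2 called 2 of the 27. The 2 with the smallest p were NAC032 (logFC 0.71 ± 0.18 SE) and ATAF1 (0.55 ± 0.15 SE). Other rising genes included the Kunitz-type protease inhibitor AT1G17860 (2.30-fold), the stress-related AT5G61820 (2.06-fold), the cellulose synthase-like CSLE1 (2.23-fold) and the J-domain protein AT3G13310 (2.76-fold).

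The 8 steroid libraries did not respond equally. Over the 58 rising loci, the median level relative to the DMSO mean was 2.56-fold in TO 3, 2.24-fold in PO 3, 2.2-fold in TO 2 and 2.13-fold in PO 4, and it was 1.93-fold in PO 2, 1.90-fold in TO 1, 1.86-fold in TO 4 and 1.75-fold in PO 1. TO 3 had the highest level of the 8 for 23 of the 58 loci and PO 3 for 14, while PO 1 had the lowest for 19 and TO 4 for 17. The order therefore ran across both steroids. Of the 53 rising protein-coding genes, 17 had another one within 20 kb, a count that was not taken for other genes and is a description. The largest such groups were the UGT, GST, CYP72A and alkenal reductase clusters described above. The 17 include AT2G29485, AT4G34139 and MTPB1, which share exon bases with GSTU2, UGT73B1 and GSTU7 on the other strand.

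Falling loci called by edgeR were fewer, and their roles were more mixed. DESeq2 called many more falling loci, and its counts of rising and falling loci, given in the last section, were closer in proportion. MYB15, a MYB factor of defence and lignin genes, was at 12.5, 33.7, 15.3 and 12.0 CPM in DMSO, and at a lowest 1.40, a median of 4.30 and a highest of 6.38 CPM with steroid. DMSO 2 was far above the other mock libraries, but every mock library was above every steroid library. MYB15 was 4.19-fold lower (logFC -2.07 ± 0.32 SE, edgeR BH-adjusted p = 0.0073) and remained called without DMSO 2 (logFC -1.60 ± 0.28 SE, edgeR BH-adjusted p = 0.032). NEET, an iron-sulfur protein of plastids and mitochondria, was at 73.7, 85.2, 82.7 and 85.2 CPM in DMSO and 46.7 to 65.5 CPM (median 57.4) with steroid, a fall of 1.44-fold with no overlap (edgeR BH-adjusted p = 0.015). NEET was not called without DMSO 2, DMSO 3 or DMSO 4 (edgeR BH-adjusted p = 0.052 without DMSO 2). BAG6, a heat-inducible co-chaperone, was at 104.2, 107.6, 56.7 and 63.6 CPM in DMSO, at 32.2 to 59.8 CPM in PO and at 24.0 to 34.5 CPM in TO. PO 1 of BAG6 lay above DMSO 3, so the groups overlapped. BAG6 was 2.24-fold lower (logFC -1.16 ± 0.22 SE, edgeR BH-adjusted p = 0.033), and without DMSO 1 the adjusted p was 0.15.

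**Figure D2:**
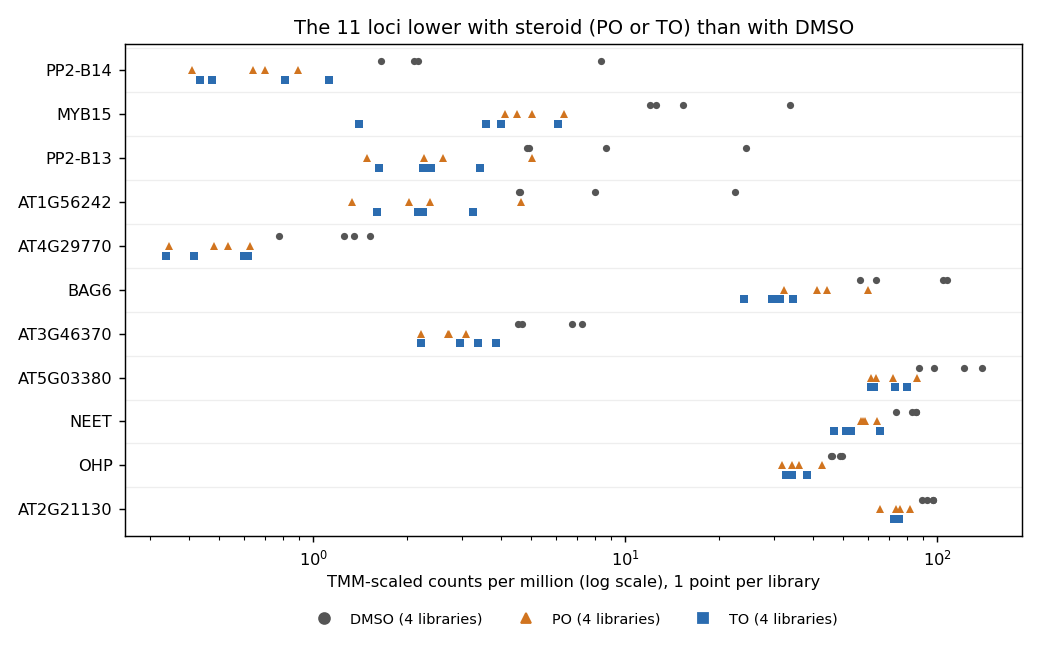
Level of the 11 falling loci in each of the 12 libraries, in TMM-scaled CPM on a log axis, with the same symbols for DMSO, PO and TO. DMSO 2 is far to the right for PP2-B14 (8.33 CPM), MYB15 (33.7 CPM), PP2-B13 (24.3 CPM) and AT1G56242 (22.4 CPM), and the groups overlap for PP2-B13, AT1G56242 and BAG6.

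A pair of neighbours on chromosome 1, PP2-B14 and PP2-B13, which encode phloem lectin-like proteins, fell as well, PP2-B14 by the largest fold of the falling loci. PP2-B14 was at 2.17, 8.33, 1.65 and 2.11 CPM in DMSO and 0.408 to 1.12 CPM (median 0.672) with steroid. No steroid library reached the lowest mock library. The fall was 5.17-fold with all libraries (logFC -2.37 ± 0.39 SE, edgeR BH-adjusted p = 0.016), while without DMSO 2 the logFC was -1.53 ± 0.29 SE (edgeR BH-adjusted p = 0.049). PP2-B13 was at 8.66, 24.3, 4.90 and 4.84 CPM in DMSO and 1.49 to 5.04 CPM (median 2.32) with steroid, and PO 1 lay above DMSO 3 and DMSO 4. It was 4.05-fold lower (edgeR BH-adjusted p = 0.046), while without DMSO 2 the logFC was -1.23 ± 0.30 SE in place of -2.02 ± 0.39 SE (edgeR BH-adjusted p = 0.16). The only long non-coding RNA among the falling loci, AT1G56242, lies on the other strand of PP2-B13 and had similar counts. The bases before both genes are shown because the genes fell together and carry the W box, printed in capitals as TTGACC or its reverse complement GGTCAA, 2 times each. Each is the 250 bases of TAIR10.1 that end at the base before the RefSeq start, read on the strand of the gene.
PP2-B14 (chr1:21063048-21063297, minus strand): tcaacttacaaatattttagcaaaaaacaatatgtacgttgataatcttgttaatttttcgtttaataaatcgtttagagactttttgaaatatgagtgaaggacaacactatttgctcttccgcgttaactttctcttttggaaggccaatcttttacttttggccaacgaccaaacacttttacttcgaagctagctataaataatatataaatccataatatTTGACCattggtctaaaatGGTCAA
PP2-B13 (chr1:21057578-21057827, minus strand): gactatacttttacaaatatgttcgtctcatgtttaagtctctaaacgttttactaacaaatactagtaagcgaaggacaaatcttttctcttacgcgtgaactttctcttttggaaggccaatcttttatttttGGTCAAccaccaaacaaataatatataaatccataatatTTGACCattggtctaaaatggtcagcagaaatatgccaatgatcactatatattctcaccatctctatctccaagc
The W box was in 6 of the 10 falling promoters over the window from 250 before to 50 after the start, and in 4 of 10 when the 50 bases after the start were left out, against 32.4% and 28.4% of all promoters. PP2-B14 and PP2-B13 are in both counts. Their printed stretches share a long run of the same bases around a TTGACC, so they are not separate observations. GAANNTTC, the core of the heat shock element, was in 4 of 10 (11.6% of all), namely those of BAG6, OHP, AT2G21130 and PP2-B13.

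The other falling loci changed by small amounts or at low levels. OHP, a one-helix protein of the thylakoid, was at 46.0, 48.9, 49.4 and 45.7 CPM in DMSO and 31.7 to 42.8 CPM (median 34.2) with steroid, a fall of 1.34-fold (logFC -0.42 ± 0.08 SE, edgeR BH-adjusted p = 0.027). The cyclophilin AT2G21130 fell by 1.27-fold, the smallest fold of all called loci, with mock values of 89.2 to 96.9 CPM and steroid values of 65.5 to 81.6 CPM. AT5G03380, annotated as a heavy metal transport or detoxification protein, fell by 1.59-fold, the receptor-like kinase AT3G46370 by 2.00-fold, and AT4G29770, annotated as a target of trans-acting siRNA, by 2.45-fold at levels of 1.52 CPM or less in every library. For these 5 loci, every steroid library was below every mock library. Without DMSO 1 the adjusted p was 0.084 for OHP, 0.12 for AT2G21130, 0.13 for AT5G03380 and 0.15 for AT4G29770 (edgeR, BH). AT3G46370 was not called without DMSO 4 or without DMSO 2 (edgeR BH-adjusted p = 0.07 without DMSO 2).

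The larger group called 19 loci that neither steroid called alone against the same 4 DMSO libraries, 11 higher (0.0474% of the loci tested) and 8 lower (0.0345%). The 3 comparisons share their mock libraries, so these counts describe what was gained and are not a test. Taken alone, PO called 37 loci higher and 2 lower, and TO 57 higher and 9 lower. Of the 58 rising loci, 34 were also called for PO and 46 for TO, 33 of them for both, whereas of the 11 falling loci none was called for PO and only MYB15, NEET and BAG6 for TO. The median standard error of the logFC over all loci was 0.126 for the 8 libraries, against 0.142 for PO and 0.143 for TO.

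The 11 rising loci gained had smaller folds than the others, 1.41 to 2.12 (median 1.59) against a median of 2.23 for the 47 others. They were the alkenal reductase relative AT5G17000, the glycosyltransferase AT2G36780, MO1, CYP72A15, the RING-type protein AT1G63840, ABF3, YLS2, FBH4 with the antisense AT2G09350, AT1G79710 of the major facilitator transporters, and CLT3, a transporter of the plastid envelope that is known to carry thiols such as glutathione. CLT3 was at 19.1, 21.1, 17 and 18.1 CPM in DMSO and 23.3 to 36.6 CPM (median 31.0) with steroid, 1.63-fold higher with no overlap (logFC 0.70 ± 0.13 SE, edgeR BH-adjusted p = 0.027). Its logFC was 0.69 for PO and 0.71 for TO, at adjusted p-values of 0.11 and 0.071 (edgeR, BH). Without DMSO 1 the adjusted p of CLT3 was 0.095 (edgeR, BH). FBH4, a basic helix-loop-helix factor that activates the flowering gene CONSTANS, was at 29.0, 23.2, 29.4 and 29.9 CPM in DMSO and 33.1 to 45.3 CPM (median 39.1) with steroid, 1.41-fold higher, the smallest fold of the rising loci. In the single comparisons the 11 loci had adjusted p-values from 0.053 to 0.15 and median logFC values of 0.69 (PO) and 0.60 (TO).

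The 8 falling loci gained were PP2-B14, PP2-B13, AT1G56242, AT3G46370, OHP, AT5G03380, AT2G21130 and AT4G29770, with folds of 1.27 to 5.17 (median 2.22). Their median logFC was -1.20 for PO and -1.10 for TO, at adjusted p-values from 0.052 to 0.19. When 1 library at a time was left out, none of the 11 rising loci gained was called all 12 times, and of the 8 falling ones only PP2-B14 was. Of the 47 rising loci that were not gained, 33 were called in all 12.

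**Figure D3:**
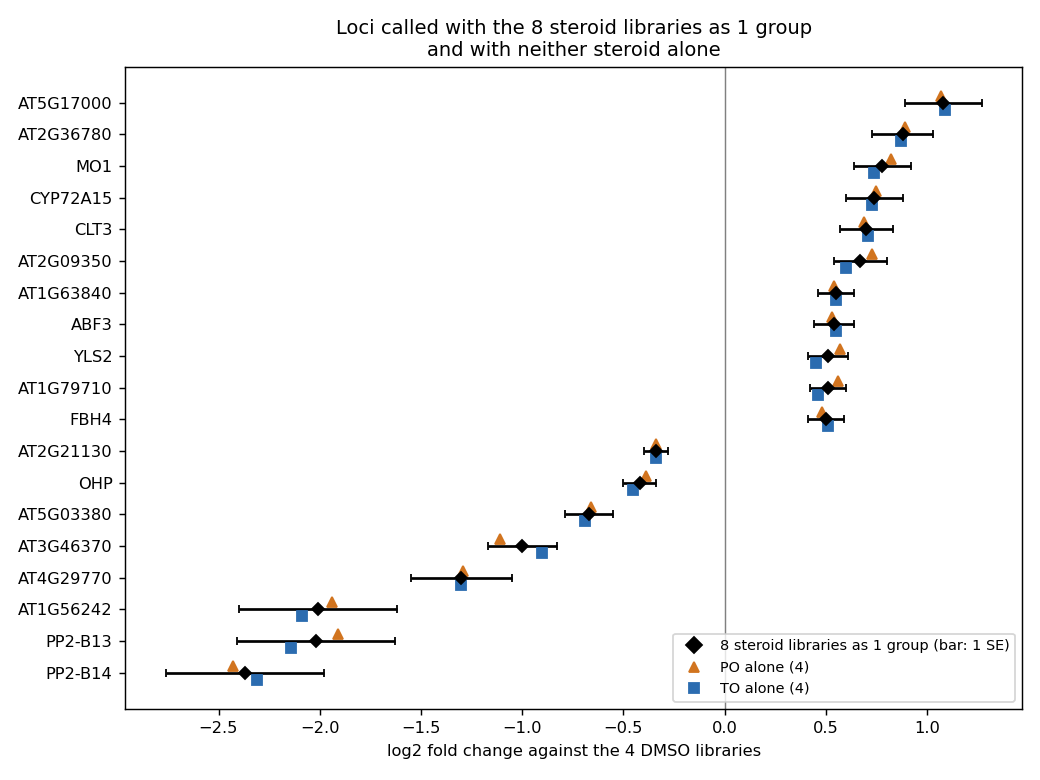
logFC against DMSO of the 19 loci called with the steroids as 1 group and with neither steroid alone: black diamonds with bars of 1 standard error for the 8 libraries, orange triangles for PO alone and blue squares for TO alone, which share the 4 DMSO libraries. PO and TO lie on the same side of 0 for each locus, with values between -2.43 and 1.09. Being called as 1 group makes this likely, so it is a description.

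Pooling also lost calls. Of the 72 loci called for PO or TO alone, 22 were not called with the steroids as 1 group, 14 with positive and 8 with negative logFC, at adjusted p-values of 0.055 to 0.40. In 20 of the 22, PO and TO differed from each other at an unadjusted p under 0.05. The lost loci included MLP165, a protein of the major latex type (logFC 0.04 for PO, 1.64 for TO), the pectin lyase-like AT3G15720 (-1.24 and -0.26), DOT3 (-1.74 and -1.02), GSTU25 (1.72 and 3.42), WRKY31 (1.37 and 2.49) and ACS6, an enzyme of ethylene synthesis (-0.69 and -1.09). Because these loci were picked for passing in 1 steroid, the differences between their values are a description.

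Few of the 69 called loci differed between the steroids at an unadjusted p under 0.05. Tested against each other in the fit of 3 treatments, the steroids gave 0 calls over all loci by edgeR (smallest BH-adjusted p 0.628) and 6 by DESeq2, and 1782 loci (7.68%) had an unadjusted p under 0.05. Among the 69, only ABCC2 (logFC 0.70 for PO and 1.13 for TO) and BAG6 (-0.91 and -1.47) had one. The logFC was larger for TO in 35 of the 58 rising loci, and further from 0 for TO in 8 of the 11 falling ones. A difference between PO and TO widens the spread in the fit that takes them as 1 group. Loci with such a difference were thus less likely to be called, and the small count among the 69 is a description. A p that misses the threshold does not show that the steroids act alike on a gene.

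Many genes of protein folding were lower at an unadjusted p, and nearly all of them without being called by edgeR. Of 33 tested genes of small heat shock proteins, 17 were lower and 0 higher at an unadjusted p under 0.05 (51.5% against 5.60% of all loci), with a median logFC of -0.35 and 0 of 33 called. DESeq2 called 8 of the 33, and edgeR without DMSO 3 called 3. Of 26 genes of the HSP70, HSP90 and HSP100 chaperones, 13 were lower and 0 higher, with a median of -0.17 and 0 of 26 called, and without DMSO 1, 8 of the 26 were lower. DESeq2 called 4 of the 26. HSP17.4, which shares 453 bases with AT3G07365 on the other strand, was at 193.6, 149.2, 58.3 and 89.0 CPM in DMSO and 26.6 to 66.3 CPM (median 58.6) with steroid (logFC -1.17 ± 0.26 SE, edgeR BH-adjusted p = 0.082). HSP101, the disaggregase, was at 406.2, 383.1, 212.9 and 278.5 CPM in DMSO and 109.4 to 249.7 CPM (median 176.0) with steroid (logFC -0.84 ± 0.20 SE, edgeR BH-adjusted p = 0.092). DMSO 1 and DMSO 2 were the highest libraries for both genes, and DMSO 3 lay among the steroid libraries. Summed over the list, the small heat shock genes came to 3376.1, 2728.0, 1787.3 and 2015.7 CPM in DMSO and 1327.0 to 1999.0 CPM with steroid, so the groups overlapped through DMSO 3. Without DMSO 1, 11 of the 33 were lower and the median logFC was -0.22. HSFA2, a factor that drives these genes, had a logFC of -0.88 ± 0.19 SE (edgeR BH-adjusted p = 0.076). With edgeR and all 12 libraries, BAG6 was the 1 called locus of the 4 lists of folding genes, which also covered 18 heat stress factors and 7 BAG co-chaperones.

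Nuclear genes of photosynthesis showed a small shift in the same direction. Of 60 tested, 30 were lower and 0 higher at an unadjusted p under 0.05, 57 had a logFC below 0 and none was called, with a median logFC of -0.22. PSBX, a subunit of photosystem II, was at 1361.9, 1435.3, 1353.9 and 1479.6 CPM in DMSO and 941.0 to 1230.4 CPM (median 1140.7) with steroid (logFC -0.34 ± 0.09 SE, edgeR BH-adjusted p = 0.14). The groups of PSBX did not overlap. RBCS1A, the small subunit of Rubisco, had a logFC of -0.07 ± 0.12 SE. The list summed to 121092.4, 152756.1, 137860.5 and 141978.2 CPM in DMSO and 104339.9 to 124419.5 CPM with steroid, with DMSO 1 inside the steroid range. Leaving out DMSO 2 reduced the count of lower genes from 30 to 12, leaving out DMSO 4 reduced it to 13, leaving out PO 3 or TO 4 to 19, and leaving out DMSO 1 raised it to 36. The leaf markers, which belong to the same kind of genes, moved with it in part (LHCB1.1 logFC -0.50 ± 0.17 SE), and their part in the result was not tested.

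**Figure D4:**
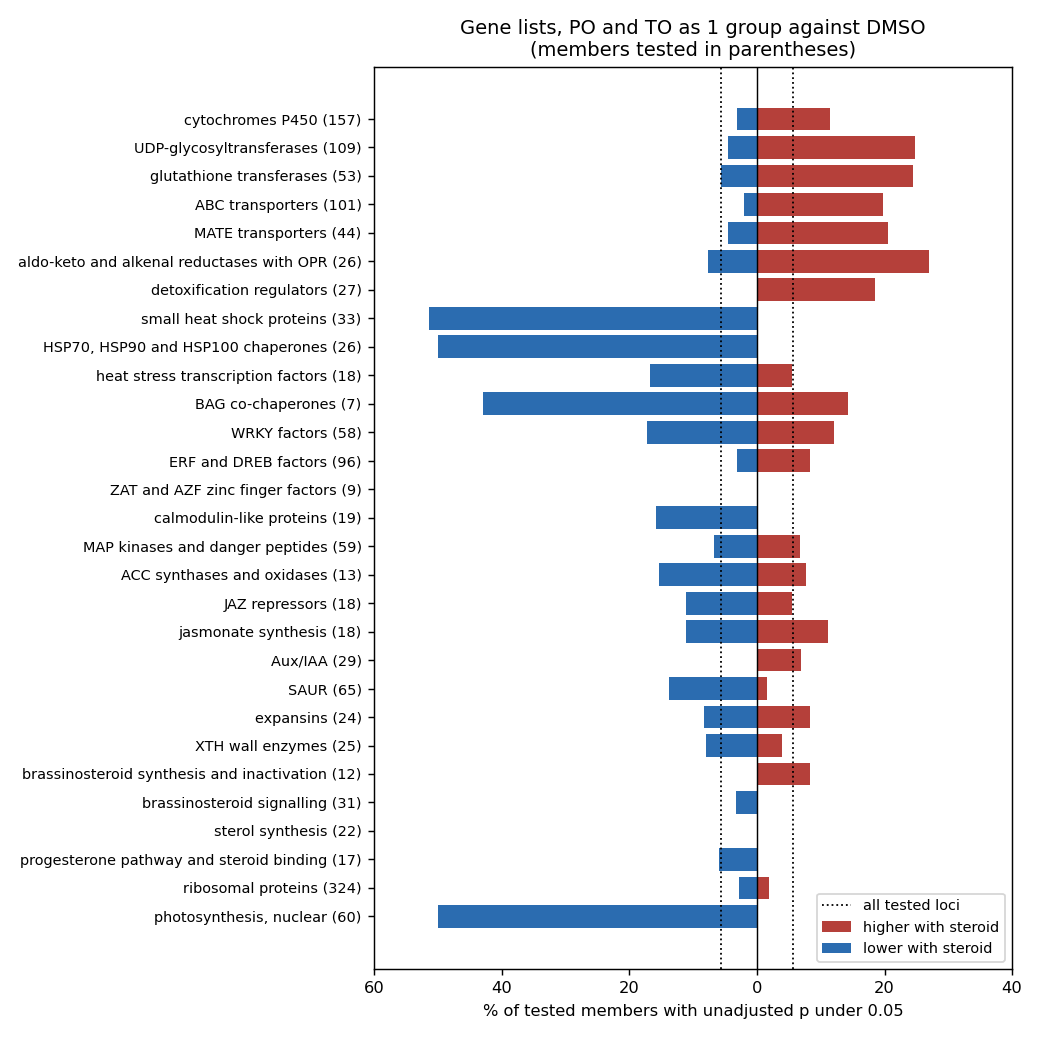
Percent of the tested members of each of 29 gene lists with an unadjusted p under 0.05 in steroid against DMSO, lower to the left in blue and higher to the right in red, with the number tested in parentheses and dotted lines for all loci (5.60% lower and 5.65% higher). The 6 detoxification lists reach 11.5% to 26.9% on the higher side, and small heat shock proteins (17 of 33), HSP70, HSP90 and HSP100 chaperones (13 of 26) and photosynthesis (30 of 60) reach furthest on the lower side.

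Lists tied to steroids gave no call. They do not hold DOGT1, the called UGT known to act on brassinosteroids (4.40-fold higher), which was counted with the UGTs. Among 12 genes of brassinosteroid synthesis and inactivation, 1 was higher (8.33%, against 5.65% of all loci) and 0 lower at an unadjusted p under 0.05. Brassinosteroid signalling had 0 higher and 1 lower of 31 (3.23%, against 5.60% of all loci), and sterol synthesis 0 of 22. The progesterone pathway with steroid-binding proteins had 0 higher and 1 lower of 17 (5.88%). The median logFC of these 4 lists lay between -0.01 and 0.05. The receptor gene BRI1 was at 219.3, 201.5, 206.8 and 242.1 CPM in DMSO and 201.6 to 259.8 CPM (median 221.1) with steroid (logFC 0.04 ± 0.08 SE), and the kinase BIN2 had a logFC of 0.01 ± 0.07 SE. DWF1, an enzyme of sterol reduction, had -0.02 ± 0.09 SE and MSBP1, a membrane steroid-binding protein, 0.11 ± 0.06 SE. SDR5, the 1 lower member of the progesterone list, was at 3.78, 7.75, 2.25 and 1.51 CPM in DMSO and 0.988 to 2.77 CPM with steroid (logFC -1.16 ± 0.37 SE, edgeR BH-adjusted p = 0.23), and its groups overlapped. For well-measured genes such as these a standard error of 0.06 to 0.09 set the size of change that could be seen.

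The remaining lists are given by their counts at an unadjusted p under 0.05, to be read against 5.65% higher and 5.60% lower over all loci. WRKY factors had 7 higher (12.1%) and 10 lower (17.2%) of 58, SAUR genes of auxin response 1 higher and 9 lower (13.8%) of 65 (median logFC -0.20), ERF and DREB factors 8 and 3 of 96, calmodulin-like proteins 0 and 3 (15.8%) of 19, and MAP kinases with danger peptides 4 and 4 of 59, where MKK9 was the 1 call. Jasmonate synthesis had 2 and 2 (11.1% each) of 18, JAZ repressors 1 and 2 (11.1%) of 18, ACC synthases and oxidases 1 and 2 (15.4%) of 13, Aux/IAA genes 2 and 0 of 29, expansins 2 and 2 of 24, XTH wall enzymes 1 and 2 of 25, ZAT and AZF factors 0 and 0 of 9, and ribosomal proteins 6 and 9 of 324. None of these genes was called except MKK9.

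How far the calls rest on single libraries was checked by leaving out each in turn. The rising loci then numbered between 35 (without DMSO 1) and 83 (without PO 1), and 36 without DMSO 3. The falling loci numbered between 4 (without DMSO 2, PO 2 or TO 3) and 27 (without PO 1). Called in every 1 of the 12 fits were 33 of the 58 rising loci, among them all UGTs named above as rising except AT2G36780, and GSTU7, GSTU1, GSTU8, CYP81D11, CYP72A13, AER, ABCG34 and MKK9. Of the 11 falling loci, only MYB15 and PP2-B14 were. All 69 loci kept the sign of their logFC in each of these fits.

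**Figure D5:**
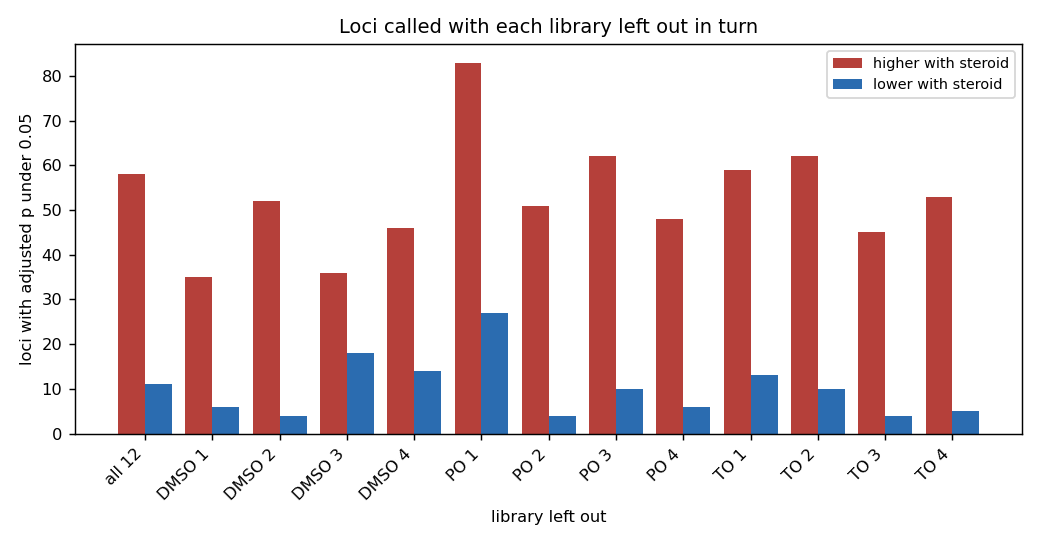
Number of loci with an edgeR BH-adjusted p under 0.05 with all 12 libraries and with each library left out, higher with steroid in red and lower in blue. With all libraries there are 58 and 11, and the bars range from 35 to 83 and from 4 to 27.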

How the data were processed

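RNA of 12 libraries (4 each of DMSO, PO and TO) was sequenced after preparation with a NEBNext Ultra II RNA kit, per the labels, in a protocol that marks the second cDNA strand. Per the labels and the study's methods, the authors demultiplexed with bcl2fastq 2.20, checked with FastQC 0.11.9, trimmed with fastp 0.23.2, aligned with HISAT2 2.2.1 to TAIR10.1, used SAMtools 1.11 and counted with featureCounts 2.0.1, and deposited the unnormalised whole-number count of each locus. Their settings for strand, overlapping loci and read pairs are not given in the sources used here. This matters because 36.6% of the tested loci share exon bases with another locus.

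The counts were tested here with edgeR 4.0.16 (R 4.3.3): filterByExpr with a minimum count of 10, which left 23203 of 38618 loci, TMM factors, a prior count of 0.125 and a quasi-likelihood fit of steroid (8) against DMSO (4) with 10 residual degrees of freedom and Benjamini-Hochberg adjustment over all loci tested. A fit of the 3 treatments gave PO, TO and their difference. CPM are TMM-scaled. Tables and plots were made with Python 3.11.15, numpy 2.4.6, pandas 2.3.3 and matplotlib 3.10.9. Total counts were 41036335 to 63445014, and the common biological coefficient of variation was 0.186. On simulated counts with 50 loci for each fold, the test of 8 against 4 called 37 of 50 at 2-fold and 48 of 50 at 4-fold higher, and 31 of 50 at 0.5-fold and 43 of 50 at 0.25-fold, with 5 false among 164 calls. The simulated loci were independent and no library was outlying, so these rates need not hold for the real libraries. All pairs of replicates differed by more than sampling noise.

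Alternatives were DESeq2 1.42.0, other scaling factors and filters, robust dispersion, the mean of PO and TO, the replicate number as a block, and each library left out. Names, gene models and promoters are from the RefSeq annotation of TAIR10.1, which matched 38400 of 38618 loci. Genes named are the 15 rising and 15 falling protein-coding loci with the smallest p, the 10 gained in each direction, called list members, up to 4 abundant uncalled members of a list, loci named by the study, markers, and called loci where PO and TO differed. Other uncalled genes, and the loci lost on pooling, were chosen after their values were seen. The gene lists and the members were chosen with earlier results of these data known.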

Additional observations from a re-analysis of the deposited data

Results flagged for a closer look

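The values of single libraries that stood far from the rest of their group (Dixon's test at its 95% critical value, in CPM) were 7 of 126 groups of values looked at, where chance gives about 1 in 20. Among the falling genes, MYB15 was at 33.7 CPM in DMSO 2, against 12 to 15.3 CPM in DMSO 1, 3 and 4, and PP2-B14 was at 8.33 CPM in DMSO 2 and at 1.65 to 2.17 CPM in the others. Without DMSO 2 both were still called, with a logFC of -1.60 for MYB15 and -1.53 for PP2-B14 (edgeR BH-adjusted p = 0.032 and 0.049).

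FBH4, a rising gene, had its low mock value of 23.2 CPM in DMSO 2, against 29 to 29.9 CPM in DMSO 1, 3 and 4. Leaving DMSO 2 out ended its call (edgeR BH-adjusted p = 0.12). CYP81D11 was at 13.2 CPM in DMSO 4, against 6.44 to 7.26 CPM in the others. AO1 was at 28.6 CPM in DMSO 4, against 22.3 to 23 CPM. In the steroid libraries, MKK9 was at 22.3 CPM in PO 2, against 16.5 to 17.6 CPM in the other 7, and the uncharacterised AT5G14730 was at 15.7 CPM in TO 3, against 7.46 to 11.4 CPM. The causes of these values were not tested.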

How the results depend on the processing

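With DESeq2, 245 loci were higher and 190 lower, in place of 58 and 11 with edgeR, and all 69 loci called by edgeR were among them. The counts of the gene lists moved as well, such as 17 called UGTs with DESeq2 in place of 7. DESeq2 called 6 loci between PO and TO, where edgeR called 0. The cause of the difference between the tools was not tested. The other scalings, filters and dispersion settings gave 56 to 65 loci higher and 8 to 15 lower. The mean of PO and TO gave 63 and 10. Leaving out 1 library at a time gave 35 (without DMSO 1) to 83 (without PO 1) loci higher, with 36 without DMSO 3, and 4 (without DMSO 2) to 27 (without PO 1) lower. The loci gained over the single steroids were then 10 (without PO 2) to 30 (without PO 1) in place of 19. Under the settings that concern them they numbered 15 to 19, where the 15 comes from an alternative added after the data were seen, the mean of PO and TO.

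The replicate numbers are shared by the 3 treatments, but same-numbered libraries did not deviate together (correlations of -0.138 to 0.2), so they share only a number. With it as a replicate block, 61 loci were higher and 14 lower, of which 49 and 6 were among the 58 and 11. For the named genes, 1815 values kept their direction and side of the threshold, 224 lost the call, 43 gained one and 0 reversed. The named genes include uncalled ones, which count as kept when they stay uncalled, so the 1815 do not measure how stable the calls are. No scaling moved the median logFC of all loci by more than 0.1. Loci near 3 counts per library, such as GSTU2, and genes that overlap or resemble another are limited by depth and counting more than the rest.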
